A study of Mus musculus with 18 samples.

Results

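The Notch pathway was examined through 10 genes: the receptors Notch1 and Notch4, the ligands Dll1, Dll4, Jag1 and Jag2, the DNA-binding factor Rbpj, and the target genes Hes1, Hey1 and Hey2. They were taken by symbol from the 21638 genes of the deposited table. All 10 passed the filter on low counts that left 17094 genes for testing. Notch receptors are cut when a ligand on a neighbouring cell binds them, and the released intracellular part joins Rbpj on DNA and switches on Hes and Hey repressor genes. In sprouting vessels, Dll4 on the leading cell acts on Notch1 in the cells that follow and keeps them from sprouting. Notch signalling also gives arterial endothelium its identity.

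The cells were endothelial cells from the cortex of adult mice, sorted for CD31 and against the platelet marker CD41 and the leukocyte marker CD45, and their mRNA was sequenced from very small input (SMART-Seq v4 PLUS, NovaSeq X plus). Mice labelled WT had either a sham operation or a middle cerebral artery occlusion (MCAO, a model of ischaemic stroke), and cells were taken from the side of the operation (ipsilateral) and from the opposite side (contralateral). Mice labelled Hdac2 ECKO and Ezh2 ECKO carried lox-flanked alleles of Hdac2, a histone deacetylase gene, or of Ezh2, the methyltransferase gene of Polycomb repressive complex 2, together with Cdh5CreERT2, a tamoxifen-activated recombinase driven from an endothelial promoter. These mice had MCAO and gave ipsilateral cells. All 6 groups were labelled with tamoxifen at 75 mg per kg, given to the floxed mice in 5 doses from day 0 to day 4, and cells were taken on day 7. Each group had 3 libraries, 18 in all. Strain, exact age and whether WT mice carried the recombinase are not given in the sources used here. The labels do not say whether replicates came from separate mice, or whether ipsilateral and contralateral libraries came from the same mice. The p-values therefore measure only the spread between these samples.

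Total counts per library ran from 25791401 to 57576255, and a count of 3 was worth 0.0619 to 0.101 CPM, a gene's count per 1000000 of the scaled library total. The 14 endothelial markers had counts in every library and summed to 8720 to 12600 CPM. Neither deleted gene was lower under its own label beyond the spread between libraries. Hdac2 stood at 57.6, 85.0 and 87.9 CPM in the libraries labelled Hdac2 ECKO against 84.4, 68.2 and 96.1 CPM in MCAO ipsilateral libraries. Ezh2 stood at 12.0, 19.7 and 8.41 CPM in those labelled Ezh2 ECKO against 4.45, 7.02 and 7.85 CPM. Counts cover the whole gene, and a transcript that lacks only the floxed exons still counts, so these values do not test the deletions. MCAO contralateral replicate 1 and Ezh2 ECKO replicate 2 stood apart. Counts on 1466 olfactory and vomeronasal receptor genes, which measure stray reads, summed to 1890 and 2080 CPM there against 152 to 716 CPM in the other libraries.

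The promoters are shown because Rbpj, the factor through which the receptors act, is itself a member, and because the ratio of Notch1 to Notch4 set the libraries labelled Ezh2 ECKO apart. RefSeq (GRCm38.p6) windows were matched for 8 of the 10 genes, Hes1 and Hey1 being the exceptions, and from 250 to 31 bases before the RefSeq start they were searched for TGGGAA, the core of the Rbpj binding site, on both strands (TTCCCA on the other). The motif was present in 2 of the 8 genes. Counted by window, it was in 3 of the 10 windows of these genes, beside 19.4% of 32851 promoter windows of the same 220 bases. The genes with the motif were Hey2 and Rbpj. In Hey2 it began 207 bases before the RefSeq start. In Rbpj it began 149 and 65 bases before the first of its RefSeq starts. The nearer Rbpj match also lies in the window of its second RefSeq start. The RefSeq starts of Notch1 and Rbpj lie inside the longer intervals that the deposited table gives for these genes, so their windows do too. No match was found in the windows of Notch1, Notch4, Dll1, Dll4, Jag1 or Jag2. Capitals mark the motif. Sequences are given 5′ to 3′ on the strand of the gene: Hey2 at chr10:30842814-30843033 (minus strand), Rbpj at chr5:53590096-53590213 (plus strand, cut short before annotated exon sequence, so that the nearer match is not shown), Notch1 at chr2:26503853-26504072 (minus strand) and Notch4 at chr17:34564045-34564264 (plus strand).
Hey2: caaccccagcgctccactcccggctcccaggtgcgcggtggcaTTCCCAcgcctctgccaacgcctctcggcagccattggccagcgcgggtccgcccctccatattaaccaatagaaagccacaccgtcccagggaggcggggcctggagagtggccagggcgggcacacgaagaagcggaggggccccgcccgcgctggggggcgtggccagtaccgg
Rbpj: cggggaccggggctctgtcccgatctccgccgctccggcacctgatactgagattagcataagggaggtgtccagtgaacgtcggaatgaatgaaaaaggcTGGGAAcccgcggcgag
Notch1: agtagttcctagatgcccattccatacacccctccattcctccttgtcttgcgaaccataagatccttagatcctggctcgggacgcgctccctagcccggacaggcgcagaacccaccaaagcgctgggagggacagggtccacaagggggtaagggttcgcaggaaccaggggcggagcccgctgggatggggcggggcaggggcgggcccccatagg
Notch4: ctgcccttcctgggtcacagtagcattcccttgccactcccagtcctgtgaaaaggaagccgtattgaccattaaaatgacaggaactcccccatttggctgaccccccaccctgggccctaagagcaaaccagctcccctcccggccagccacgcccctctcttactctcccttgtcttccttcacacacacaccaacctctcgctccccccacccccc
The receptor promoters differed in CpG content. The Notch4 window held 4 CpG dinucleotides, beside a median of 5 over all promoters. The Notch1 window held 12, that of Rbpj 19 and that of Hey2 20.

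Levels between genes were compared per kilobase of gene model. Hes1 was the most abundant member, with a median of 570 CPM per kilobase over the 18 libraries, and its lowest library (356) lay above the highest library of every other member. Hey1 was next at 21.8 CPM per kilobase. Below it, Jag1 (11.2), Jag2 (10.8), Dll4 (9.19), Notch1 (7.68) and Notch4 (5.89) lay close together, and each neighbouring pair overlapped across libraries. Rbpj followed at 3.32, Dll1 at 1.15 and Hey2 at 0.443 CPM per kilobase. Notch4 varied least of the 10, with its highest library 1.75-fold above its lowest, against 3.16-fold for Hey1 and 4.18-fold for Hes1. For Dll1 the ratio was 49.6-fold, and 1 Hey2 library lay under the level of 3 counts.

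**Figure D1:**
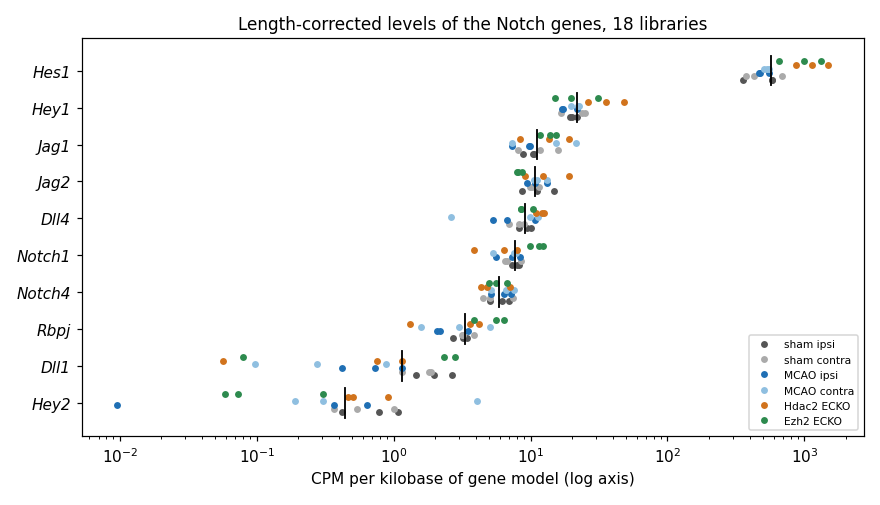
Levels of the 10 Notch genes in CPM per kilobase of gene model (log axis), 1 point per library, coloured by group, with the black line at the median of 18 libraries. Hes1 stands apart at a median of 570, while Dll1 and Hey2 sit at 1.15 and 0.443 and spread most widely.

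Of the receptors, Notch1 (chromosome 2, 26457903 to 26516663, minus strand of GRCm38) stood at 76.0 to 121 CPM in the 12 sham and MCAO libraries of WT mice, with a median of 106. The libraries labelled Ezh2 ECKO gave 165, 177 and 140 CPM, all above every other library. Those labelled Hdac2 ECKO gave 114, 90.4 and 55.2 CPM. MCAO ipsilateral libraries gave 119, 104 and 80.1 CPM. Notch4 (chromosome 17, 34564268 to 34588503, plus strand), a receptor found mainly on endothelium, showed no such shift. It stood at 36.2 to 61.2 CPM in the WT libraries. The Hdac2 ECKO label had 57.1, 38.6 and 35.0 CPM of it, and the Ezh2 ECKO label 39.9, 53.9 and 45.3 CPM.

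Of the ligands, Dll1 (chromosome 17, 15367354 to 15376872, minus strand) was scarce. It stood at 8.37, 11.2 and 6.10 CPM in sham ipsilateral and 4.83, 7.94 and 7.64 CPM in sham contralateral libraries. MCAO ipsilateral libraries gave 1.78, 4.85 and 3.11 CPM and MCAO contralateral libraries 0.408, 3.72 and 1.16 CPM. The 6 MCAO libraries thus lay below the sham libraries except that the highest of them (4.85) just passed the lowest sham value (4.83). Under the deletion labels Dll1 was scattered, at 4.89, 0.241 and 3.18 CPM for Hdac2 ECKO and 9.81, 11.9 and 0.335 CPM for Ezh2 ECKO.

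Dll4 (chromosome 2, 119325784 to 119335962, plus strand), the ligand of sprouting and arterial cells, stood at 48.2, 42.1 and 46.6 CPM in the libraries labelled Hdac2 ECKO, against 26.0, 20.6 and 41.3 CPM in MCAO ipsilateral libraries. Those 2 groups did not overlap, although the nearest libraries were close. In sham libraries it stood at 27.0 to 38.9 CPM and in those labelled Ezh2 ECKO at 32.7 to 40.0 CPM. MCAO contralateral replicate 1 had the lowest value of all, 10.1 CPM, while the other libraries of its group gave 38.4 and 44.0 CPM. Jag1 (chromosome 2, 137081456 to 137116644, minus strand), a ligand that opposes Dll4 during sprouting, was highest in that same library at 125 CPM. It stood at 90.2, 68.7 and 81.1 CPM under the Ezh2 ECKO label, above the 56.4, 57.9 and 42.4 CPM of MCAO ipsilateral libraries. Under the Hdac2 ECKO label it spread over 112, 79.0 and 48.5 CPM. Jag2 (chromosome 12, 112907819 to 112929776, minus strand), the other Jagged ligand, was lowest under the Ezh2 ECKO label at 56.3, 55.6 and 60.8 CPM. MCAO ipsilateral libraries gave 91.4, 75.5 and 65.7 CPM of Jag2, and those labelled Hdac2 ECKO 132, 63.4 and 85.7 CPM.

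Rbpj (chromosome 5, 53466152 to 53657362, plus strand) stood at 82.1, 71.7 and 49.4 CPM under the Ezh2 ECKO label, which held its 2 highest values. MCAO ipsilateral libraries gave 26.5, 27.8 and 44.8 CPM, and the 2 groups did not overlap. Sham libraries stood at 34.6 to 49.6 CPM, where the highest passed the lowest Ezh2 ECKO value. The libraries labelled Hdac2 ECKO gave 46.0, 53.6 and 16.9 CPM and reached below the WT range of 20.3 to 64.4 CPM.

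Among the targets, Hes1 (chromosome 16, 30064384 to 30067796, plus strand), a repressor induced by Notch and by other signals, stood at 725 to 1410 CPM in the 12 WT libraries, with a median of 1060. In the libraries labelled Hdac2 ECKO it stood at 3030, 1780 and 2320 CPM, and in those labelled Ezh2 ECKO at 2700, 1330 and 2010 CPM. All 3 Hdac2 ECKO values and 2 of the 3 Ezh2 ECKO values lay above every WT library. Hey1 (chromosome 3, 8663359 to 8667256, minus strand), a transcriptional repressor expressed in arterial endothelium, stood at 85.3, 117 and 157 CPM under the Hdac2 ECKO label, above all 12 WT libraries (54.9 to 81.4 CPM). Under the Ezh2 ECKO label it spread over 102, 65.0 and 49.6 CPM and overlapped them. Hey2 (chromosome 10, 30832359 to 30842801, minus strand), a related repressor, stood at 1.93 to 4.97 CPM in sham ipsilateral and 1.68 to 4.64 CPM in sham contralateral libraries. The Hdac2 ECKO label had 2.31, 4.15 and 2.15 CPM of Hey2, and the Ezh2 ECKO label 0.270, 1.39 and 0.335 CPM. MCAO contralateral replicate 1 again stood alone, with 18.6 CPM of Hey2 against 0.871 and 1.41 CPM in the rest of its group.

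**Figure D2:**
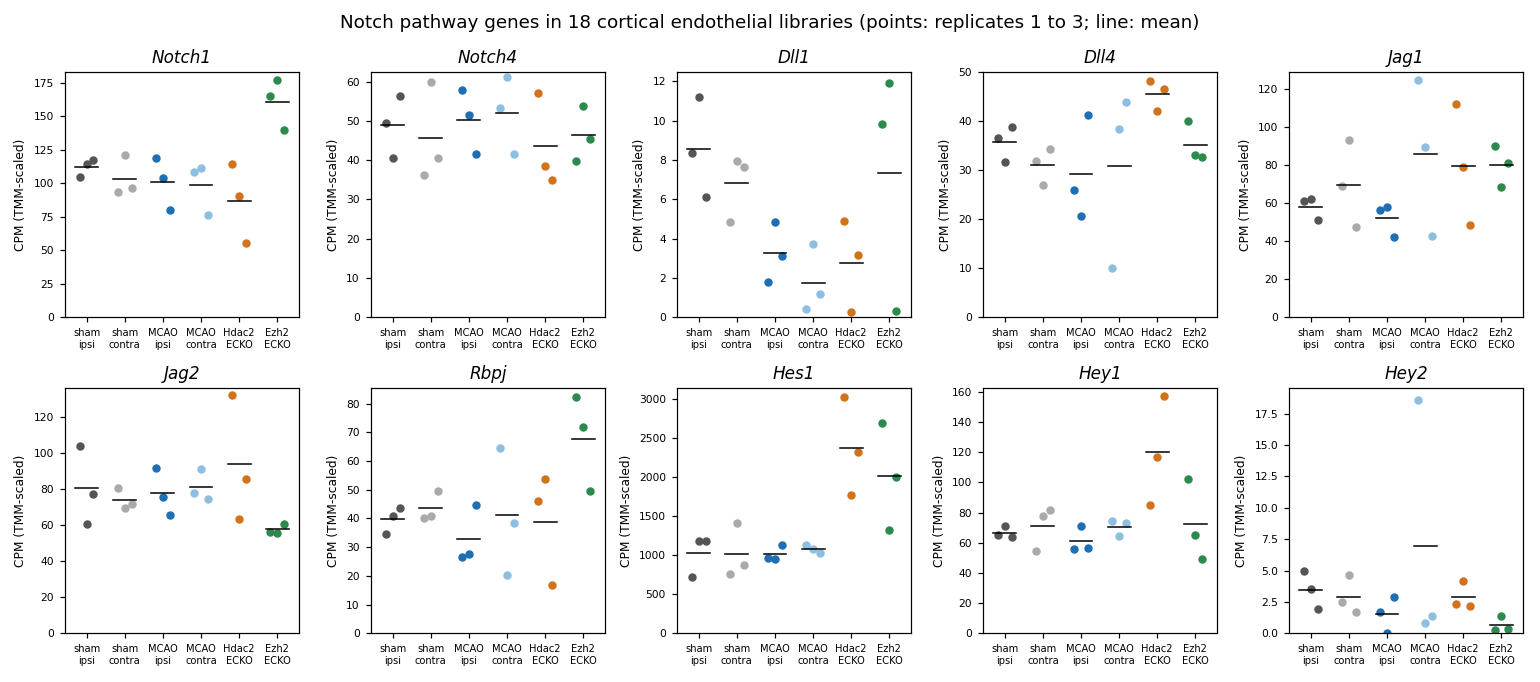
Levels of each Notch gene in CPM (linear axes from 0) in the 6 groups, with replicates 1 to 3 as points from left to right and the mean as a line. Hes1 is higher under both deletion labels (1330 to 3030 CPM) than in most WT libraries (725 to 1410 CPM), Hey1 under the Hdac2 ECKO label, and Notch1 under the Ezh2 ECKO label (140 to 177 CPM).

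The effect of the occlusion on these genes was asked with MCAO against sham libraries, on each side and over both. Dll1 was the member with the largest difference. Over both sides it was lower in MCAO by a log2 fold change of −1.67 ± 0.74 (SE, n = 6 libraries against 6). Its unadjusted p was 0.0337 and its adjusted p 0.488 in edgeR's quasi-likelihood test with Benjamini-Hochberg adjustment, and it did not pass. The fit treated the libraries of both sides as independent, although they may share mice. The other 9 members lay between −0.17 and 0.12 on the log2 scale. The 2 receptors, 3 other ligands, Rbpj and the 3 targets were thus all at fold changes near 1 over both sides. The widest interval was that of Hey2 (log2 −1.66 to 1.74), and Hes1 had one of −0.45 to 0.52. For Hey2 the value averaged opposite differences, −1.171 on the injured side and 1.245 on the opposite side. On the opposite side, MCAO contralateral replicate 1 alone had 18.6 CPM of Hey2. A total of 0 of 10 members were called, where 0.152% of all genes were, and 1 had an unadjusted p under 0.05, where 9.09% of all genes did. The groups overlapped for all 10 members, and 1.42% of all genes had no overlap. The median log2 difference was −0.02 over the members and 0.06 over all genes tested. DESeq2 and voom with sample weights also called 0 members here, and voom put 3 at an unadjusted p under 0.05.

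The Dll1 difference rested on few reads, with raw counts of 8 to 468 per library. Its unadjusted p rose above 0.05 without any one of these libraries: sham ipsilateral replicates 1 and 2, sham contralateral replicates 2 and 3, and replicates 1 and 3 of each MCAO group, while the log2 difference stayed between −2.25 and −1.42 and the adjusted p between 0.0809 and 0.799 under every alternative run. The sum of the 8 mural markers went in the same direction. It was 86.7 to 173 CPM in sham libraries, 38.0 to 88.7 CPM in MCAO ipsilateral and 12.4 to 60.4 CPM in MCAO contralateral libraries. Of the 8 markers, 5 had counts in every MCAO ipsilateral library and 7 in every sham ipsilateral library. Pdgfrb, a receptor that defines pericytes, stood at 0 to 1.05 CPM in MCAO ipsilateral and at 4.17 to 4.48 CPM in sham ipsilateral libraries. Rgs5 stood at 36.7, 17.8 and 50 CPM in MCAO ipsilateral against 61.5, 63.5 and 70.1 CPM in sham ipsilateral libraries. Myh11 stood at 3.69, 2.16 and 1.82 CPM against 9.24, 6.1 and 12.8 CPM, also without overlap. Kcnj8, Abcc9, Acta2, Tagln and Cspg4 overlapped between those 2 groups. Abcc9 stood at 3.78, 0 and 2.15 CPM against 2.19, 0.667 and 4.71 CPM, and Kcnj8 at 0.365, 0 and 0.909 CPM against 0.536, 0 and 0.696 CPM. The part of the mural markers in the Dll1 difference was not tested. In bulk samples, fewer cells of a type and less RNA per cell cannot be told apart.

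Each side on its own gave no call either. MCAO ipsilateral against sham ipsilateral called 0 of 10, beside 0% of all genes, and 0 members had an unadjusted p under 0.05, beside 7.08%. MCAO contralateral against sham contralateral also called 0 (0% of all genes) with 0 members under an unadjusted p of 0.05 (4.41% of all genes). MCAO ipsilateral against MCAO contralateral gave 0 (0%) and 0 (3.08%), and sham ipsilateral against sham contralateral 0 (0%) and 0 (1.85%). The interaction, that is, the side difference after MCAO against the side difference after sham, gave 0 (0%) and 0 (3.38%). Dll1 stood at −1.39 on the injured side and −1.94 on the opposite side on the log2 scale. Neither DESeq2 nor voom called a member in any of these 5 comparisons.

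The question of what endothelial Hdac2 does after occlusion was put by setting the Hdac2 ECKO libraries, so labelled, against the MCAO ipsilateral ones. Both Hes1 and Hey1 were about 2-fold higher and neither passed the test over all genes. Hes1 differed by 1.22 ± 0.33 on the log2 scale (SE, n = 3 against 3; a 2.33-fold difference), with an unadjusted p of 0.00148 and an adjusted p of 0.301 in edgeR's quasi-likelihood test. Hey1 differed by 0.97 ± 0.33 (1.96-fold), with an unadjusted p of 0.00738 and an adjusted p of 0.405. The other target, Hey2, stood at 0.89 with an interval of −1.51 to 3.29. The receptors stood at −0.22 (Notch1) and −0.21 (Notch4), the ligands between −0.23 (Dll1) and 0.64 (Dll4), and Rbpj at 0.23. The members called numbered 0 of 10, beside 0.0117% of all genes, and 2 had an unadjusted p under 0.05, beside 9.85%. The groups did not overlap for Dll4, Hes1 and Hey1, which is 3 of 10, beside 19.9% of all genes. The median log2 difference was 0.44 over the 10 members and 0.11 over all genes tested.

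The call on Hes1 depended on the tool. DESeq2 gave it an adjusted p of 0.0272 at a log2 difference of 1.30, where the alternatives as a whole ran from 0.0272 to 0.997, and voom called 0 members. Hes1 kept a log2 difference of 0.96 to 1.48 under every alternative run and Hey1 one of 0.69 to 1.23. The 12 immediate early genes, a list chosen after earlier results were known, were higher as a sum, and some but not all were higher without overlap. Their sum was 3700 to 5260 CPM under the Hdac2 ECKO label against 1830 to 2800 CPM in MCAO ipsilateral libraries. It was 2680 to 3140 CPM in sham ipsilateral libraries and 2430 to 3630 CPM under the Ezh2 ECKO label. Of the list, Fos, Fosb, Egr2, Nr4a1, Nr4a2, Nr4a3, Dusp1 and Klf4 were higher in each Hdac2 ECKO library than in any MCAO ipsilateral library. Junb, Egr1, Atf3 and Ier2 overlapped. Ier2 stood at 313, 262 and 188 CPM under the Hdac2 ECKO label against 311, 396 and 308 CPM in MCAO ipsilateral libraries. Mural markers summed to 19.6 to 68.3 CPM under the Hdac2 ECKO label against 38.0 to 88.7 CPM in MCAO ipsilateral libraries. The 5 red cell markers summed to 49300 to 298000 CPM against 38300 to 65400 CPM. The part of these lists in the Hes1 and Hey1 differences was not tested. The correlation, across genes, between GC content and a library's departure from the average level was −0.204 to 0.0751 under the Hdac2 ECKO label and 0.29 to 0.383 in MCAO ipsilateral libraries. With that trend removed, Hes1 stood at 1.48 and Hey1 at 1.23 on the log2 scale, and 4 members in place of 2 had an unadjusted p under 0.05.

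**Figure D3:**
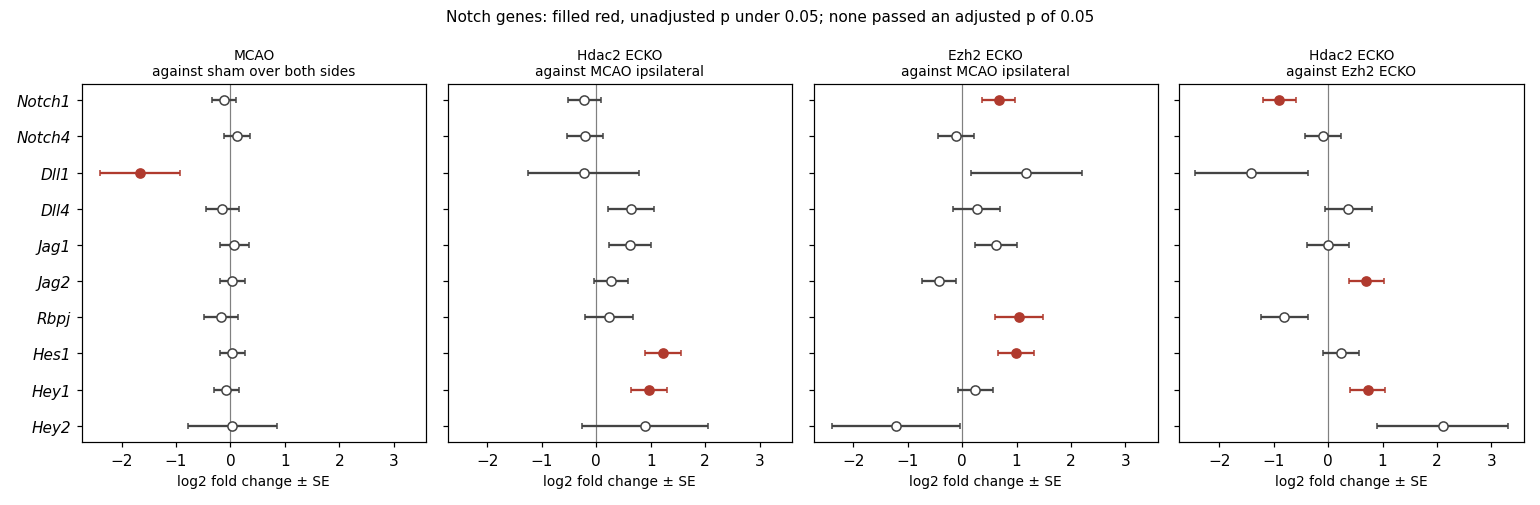
Log2 fold change (point) and SE (bar) of the 10 Notch genes in 4 comparisons, in red where the unadjusted p was under 0.05. Dll1 is at −1.67 after occlusion, Hes1 at 1.22 and 0.98 under the deletion labels, and none passed an adjusted p of 0.05 in edgeR.

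For Ezh2 the same 3 control libraries were used. Here Hes1, Rbpj and Notch1 were higher, with no overlap between groups, and again none passed. Hes1 differed by 0.98 ± 0.33 on the log2 scale (SE, n = 3 against 3; 1.98-fold), with an unadjusted p of 0.00755 and an adjusted p of 0.119 in edgeR's quasi-likelihood test. Rbpj differed by 1.04 ± 0.44 (2.05-fold), with 0.0283 and 0.204. Notch1 differed by 0.67 ± 0.30 (1.59-fold), with 0.0390 and 0.233. The ligands went both ways, Jag1 at 0.61 with no overlap, Jag2 at −0.43 with no overlap, Dll4 at 0.27 and Dll1 at 1.18. Notch4 stood at −0.12, Hey1 at 0.24 and Hey2 at −1.21, with an interval of −3.65 to 1.22 for the latter. The members called numbered 0 of 10, beside 1.46% of all genes, and 3 had an unadjusted p under 0.05, beside 19.2%. The groups did not overlap for 5 of 10 members (Notch1, Jag1, Jag2, Rbpj and Hes1), beside 29% of all genes. The median log2 difference was 0.44 over the members and 0.17 over all genes tested, and RLE scaling moved the latter by 0.19, to 0.36.

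DESeq2 called Hes1 here too, with a log2 difference of 1.14 and an adjusted p of 0.0232, in a range over all alternatives of 0.0232 to 0.404, and voom called 0 members. The count of 3 members at an unadjusted p under 0.05 became 0 without Ezh2 ECKO replicate 1, and 1 without Ezh2 ECKO replicate 2 or MCAO ipsilateral replicate 2. GC content moved with the groups. Across genes, each library's departure from the average level was ranked against GC content, and this correlation was 0.29 to 0.383 in MCAO ipsilateral libraries and −0.388 to −0.0746 under the Ezh2 ECKO label, so that AT-rich genes stood higher in the latter. Rbpj has 43.7% GC, Jag1 48.8%, Notch1 57.1% and Jag2 61.9%. With that trend removed, Rbpj stood at 0.72, Notch1 at 1.04 and Hes1 at 1.03 on the log2 scale. The red cell markers were at 70.1 to 671 CPM in the libraries labelled Ezh2 ECKO against 38300 to 65400 CPM, and their part in these differences was not tested.

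The libraries under both deletion labels were also compared with each other, since each difference above shares its controls. Notch1 was lower under the Hdac2 ECKO label than under the Ezh2 ECKO label by a log2 fold change of −0.89 ± 0.31 (SE, n = 3 against 3), with an unadjusted p of 0.00803 and an adjusted p of 0.267 in edgeR's quasi-likelihood test. Hey1 was higher by 0.73 ± 0.33, with an unadjusted p of 0.0361 and an adjusted p of 0.409. Jag2 was higher by 0.70 ± 0.32, with 0.0381 and 0.416. Without Hdac2 ECKO replicate 1, the library with 132 CPM, Jag2 stood at 0.32, and without Hdac2 ECKO replicate 3 Hey1 stood at 0.47. Hes1 differed by 0.24, with an interval of −0.45 to 0.93, so a difference of either sign could not be told from the spread. A total of 0 of 10 members were called, beside 0.123% of all genes, and 3 had an unadjusted p under 0.05, beside 11.2%. That count was 1 with RLE scaling, DESeq2, the replicate block or only the groups compared. The groups did not overlap for Notch1, Dll4, Jag2 and Hey2, 4 of 10, beside 12.1% of all genes. DESeq2 called Notch1 with an adjusted p of 0.0471, in a range over all alternatives of 0.0471 to 0.502, and voom called 0 members.

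Ratios of 2 members within a library do not depend on how libraries are scaled. The GC trend described above was not removed from them. GC content is 57.1% for Notch1 and 61.2% for Notch4, and 48.8% for Jag1 and 55.9% for Dll4. The 3 ratios, chosen after the levels were seen, set receptor against receptor, ligand against ligand and target against target. Notch1 over Notch4, as a ratio of counts, was 4.15, 3.27 and 3.08 in the libraries labelled Ezh2 ECKO. In the other 15 libraries it ran from 1.58 to 2.82, and the MCAO ipsilateral libraries gave 2.06, 2.01 and 1.92. All 3 Ezh2 ECKO ratios thus lay above every other library, at 1.74 times the MCAO ipsilateral ratio. The same ratio was also below sham on each side after MCAO, at 1.92 to 2.06 against 2.08 to 2.82 ipsilaterally and 1.81 to 2.02 against 2.03 to 2.57 contralaterally. The ipsilateral log2 difference of −0.22 became −0.075 without sham ipsilateral replicate 2. Hes1 over Hey1 was 26.5, 20.5 and 40.5 under the Ezh2 ECKO label against 17.4, 13.4 and 19.9 in MCAO ipsilateral libraries, without overlap. Under the Hdac2 ECKO label, where both targets were higher, it was 14.8 to 35.5 and overlapped the controls. Jag1 over Dll4 was 12.4 in MCAO contralateral replicate 1 and 0.972 to 3.45 in the other 17 libraries. Each of these 4 differences between groups without overlap gave an exact permutation p of 0.1 (two-sided), the smallest that 3 against 3 libraries allow, and 0.42 after adjustment over the 21 tests of this kind.

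**Figure D4:**
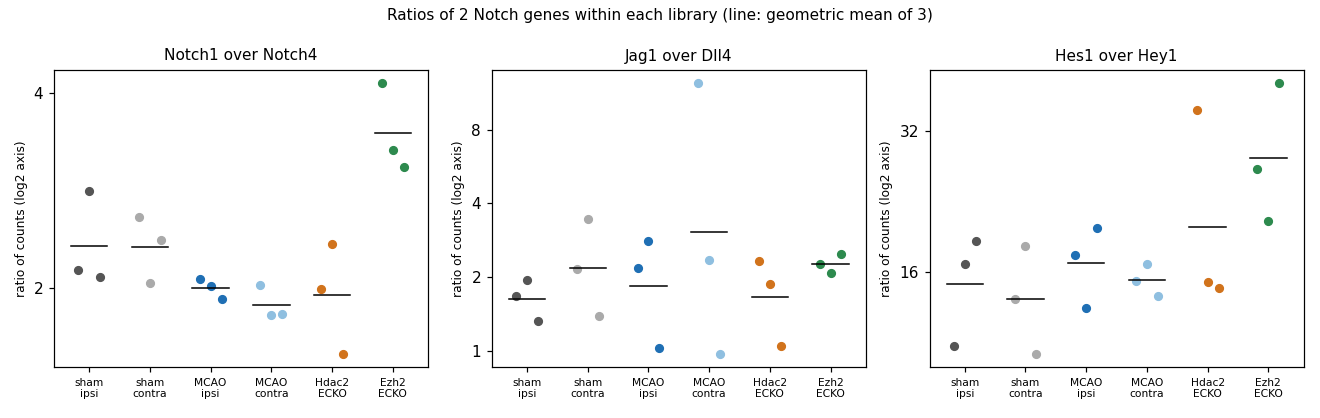
Ratios of counts of 2 Notch genes within each library (log2 axes), with the geometric mean of each group as a line. Notch1 over Notch4 is 3.08 to 4.15 under the Ezh2 ECKO label, while it is 1.58 to 2.82 elsewhere, and Jag1 over Dll4 reaches 12.4 in a single MCAO contralateral library.

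The machinery around these genes was described with a list of 52 other pathway genes, of which 48 passed the filter on low counts (Dll3, Neurl1a, Dtx1 and Hes5 did not). In edgeR's quasi-likelihood test 0 of the 48 were called in any of the 9 comparisons. After the occlusion, over both sides, 2 had an unadjusted p under 0.05, where 9.09% of all genes did: Adam10, the protease that makes the outer cut of Notch receptors, at −0.76 ± 0.24 on the log2 scale (adjusted p 0.236) and Mfng, a Fringe enzyme that adds sugars to Notch, at 0.70 ± 0.33 (adjusted p 0.532). By role, 5 of 5 glycosyltransferases, 7 of 10 proteases, 2 of 3 ligand ubiquitin ligases, 3 of 8 genes of receptor turnover, 3 of 10 corepressors, 1 of 4 targets, 1 of 6 coactivators and 0 of 2 receptors stood above 0, as did 9266 of 17094 genes. The median over the 48 was −0.01, beside 0.06 for all genes. Without MCAO contralateral replicate 1 the count of 2 became 9, with 1 called, and voom gave 15, with 4 called. It became 1 without any one of the sham ipsilateral libraries, sham contralateral replicates 2 and 3, or replicate 2 of each MCAO group. On the injured side alone Adam10 stood at 181, 108 and 197 CPM against 247, 356 and 308 CPM in sham libraries, and Mfng at 36.0, 54.4 and 29.4 CPM against 20.8, 17.4 and 22.4 CPM. Both were without overlap, which held for 15 of the 48 and for 27.7% of all genes in that comparison. The log2 differences there were −0.91 ± 0.34 for Adam10 (unadjusted p 0.0148, adjusted p 0.630 in edgeR) and 0.98 ± 0.46 for Mfng (0.0458 and 0.699).

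Under the Hdac2 ECKO label, 4 of the 48 had an unadjusted p under 0.05, 3 higher and 1 lower, beside 9.85% of all genes. Adam10 was higher by 0.96 ± 0.34 on the log2 scale (unadjusted p 0.0105, adjusted p 0.415 in edgeR), at 270, 292 and 383 CPM, which is within the sham range (247 to 407 CPM). By role, 6 of 6 coactivators, 7 of 8 genes of receptor turnover, 6 of 10 corepressors, 5 of 10 proteases, 2 of 4 targets, 1 of 2 receptors, 1 of 3 ligand ubiquitin ligases and 0 of 5 glycosyltransferases stood above 0, as did 9369 of 17094 genes. Only 1 of those coactivators and 0 of the glycosyltransferases had an unadjusted p under 0.05. The median over the 48 was 0.06, beside 0.11 for all genes. Without MCAO ipsilateral replicate 2 the count of 4 became 0, without MCAO ipsilateral replicate 1 it became 2 and without Hdac2 ECKO replicate 3 it became 1.

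Under the Ezh2 ECKO label, 14 of the 48 had an unadjusted p under 0.05, 8 higher and 6 lower, beside 19.2% of all genes. Adam10 came nearest to the threshold. It stood at 462, 318 and 390 CPM, a log2 difference of 1.27 ± 0.34 with an unadjusted p of 0.00136 and an adjusted p of 0.0594 in edgeR's quasi-likelihood test. Hes6, a Hes family member that opposes Hes1, was listed among the targets, and its induction by Notch was not tested. It stood at 1.13, 0 and 0.335 CPM against 10.3, 22.7 and 6.65 CPM. The log2 difference was −4.75 ± 1.30 with an unadjusted p of 0.00145 and an adjusted p of 0.0604 in the same test. Of the proteases, 4 of 10 had an unadjusted p under 0.05, Adam10 higher and Psenen, Aph1a and Aph1b lower. Those last 3 encode subunits of the γ-secretase that makes the inner cut, and Aph1b stood at 3.45, 1.25 and 0.335 CPM against 11.5, 15.8 and 14.1 CPM. Both ligand ubiquitin ligases of the Mib pair were among the 14, Mib1 at 1.06 and Mib2 at −2.15 on the log2 scale. The target Nrarp, a feedback inhibitor induced by Notch, stood at 9.38, 14.6 and 6.88 CPM against 3.01, 3.18 and 4.69 CPM. Of the coactivators 4 of 6 had an unadjusted p under 0.05, with Snw1, Ep300 and Kat2b higher and Maml3 lower. The median over the 48 was 0.03, beside 0.17 for all genes. Without MCAO contralateral replicate 1 in the fit, 6 of the 48 were called, DESeq2 called 7 and voom 1, and without MCAO ipsilateral replicate 2 the count of 14 became 7.

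**Figure D5:**
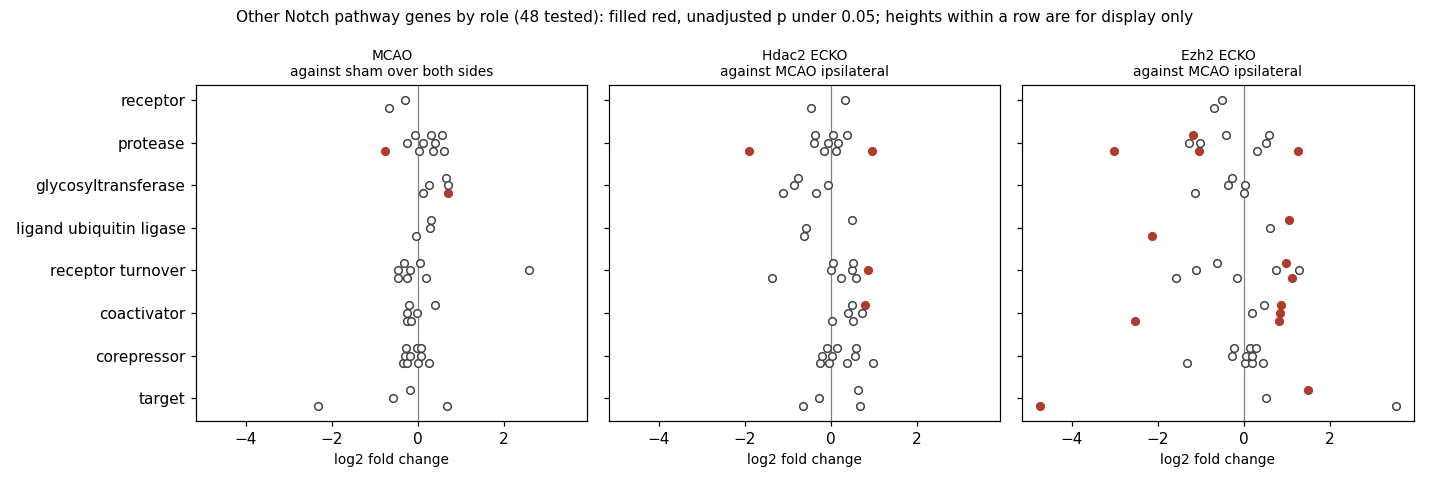
Log2 fold changes of the 48 other Notch pathway genes by role in 3 comparisons, 1 point per gene, in red where the unadjusted p was under 0.05. There are 2 red points after occlusion, 4 under the Hdac2 ECKO label and 14 under the Ezh2 ECKO label. Under the latter, the lowest gene listed as a target is Hes6 at −4.75.

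Between the deletion labels, 8 of the 48 had an unadjusted p under 0.05, 7 higher for Hdac2 ECKO and 1 lower, beside 11.2% of all genes. Hes6 stood at 8.33, 6.38 and 10.6 CPM under that label, a log2 difference of 4.09 ± 1.26, and Aph1a at 25.5, 33.1 and 19.6 CPM against 15.1, 8.59 and 12.6 CPM, a log2 difference of 1.11 ± 0.42. Neither passed, with unadjusted p of 0.00380 and 0.0147 and adjusted p of 0.215 and 0.311 in edgeR's quasi-likelihood test. Without Ezh2 ECKO replicate 2 the count of 8 became 4, and without Hdac2 ECKO replicate 2 it became 5.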

How the data were processed

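Reads from 18 libraries were processed by the authors, who per the submitters' processing notes used FastQC, cutadapt, STAR, featureCounts and DESeq2 with build mm10. Their settings, strand and annotation are not given in the sources used here. The deposited values are counts per gene, whole numbers and unscaled although the table is called normalized, so the edgeR branch of the written design applied. Even numbers made up 77.3% to 89.4% of each library's counts between 1 and 20, as when both mates are counted. A total of 0 value columns lacked a sample. No gene of the table overlaps a member on either strand.

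The 17094 genes that reached a count of 10 in 3 or more libraries entered edgeR 4.0.16 (R 4.3.3), whose quasi-likelihood F-test was run after TMM scaling on 1 fit of 6 group means. Adjusted p is Benjamini-Hochberg over all genes tested, called under 0.05, and SE is the log2 fold change over the square root of F. Intervals are 95%. The common biological coefficient of variation was 0.774. The script was tested on simulated data. Alternatives used DESeq2 1.42.0, voom (limma 3.58.1), other scaling and filters, covariates, a replicate block and each library left out.

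The members and lists were chosen with earlier results of these data known. All members are described. Fold change, SE and p are given for members with an unadjusted p under 0.05, and from the wider and arterial lists up to 2 genes per comparison with the smallest unadjusted p under 0.05 and no overlap. Other genes, such as Psenen, Aph1b, Mib1, Mib2, Nrarp and the coactivators, were named after their values were seen. A gene that the rule names is not reported here. Besides endothelial, mural, red cell and immediate early genes, marker sums over all libraries were 30.8 to 92.2 CPM for astrocytes, 3.77 to 165 for the oligodendrocyte lineage, 0.547 to 8.6 for neurons, 0.647 to 18.4 for microglia, 5.99 to 17.0 for leukocytes and 7.91 to 82.4 for platelets.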

Additional observations from a re-analysis of the deposited data

How the results depend on the processing

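The count of 0 called Notch members held in every alternative run, except that DESeq2 called 1 member (Hes1) for Hdac2 ECKO, 1 (Hes1) for Ezh2 ECKO and 1 (Notch1) between the deletion labels. No member named with its test changed direction in any alternative, including those added after seeing the data. All genes called varied widely: 0 to 2199 over both sides (26 in the report), 0 to 239 for Hdac2 ECKO (2), 5 to 1617 for Ezh2 ECKO (250), 4 to 647 between deletion labels (21), 0 to 1273 on the injured side (0), 0 to 26 on the opposite side (0), and 0 to 6 for both side differences and the interaction (0). With the replicate block, members called stayed at 0 and all genes called became 4, 2, 12 and 9 in the first 4 of these. Same-numbered libraries did not deviate together in every pair of any comparison (r −0.255 to 0.327). In no comparison did every library correlate best with its own number. Between the sides, r was 0.12, 0.299 and −0.0197 after MCAO and 0.215, 0.25 and −0.0743 after sham. These values do not settle whether the 2 sides of a number share a mouse. Leaving out 1 library turned the sign of 3 ratios: log2 Notch1 over Notch4 ran from −0.17 to 0.11 for Hdac2 ECKO (and, keeping its sign, −0.29 to −0.075 for MCAO on the injured side), Jag1 over Dll4 from −0.58 to 0.18 for Hdac2 ECKO, −0.12 to 0.60 for Ezh2 ECKO and −0.12 to 0.60 for MCAO on the injured side, and Hes1 over Hey1 from −0.15 to 0.48 for Hdac2 ECKO and −0.074 to 0.31 for MCAO. In the wider list 0 to 7 genes were called for Ezh2 ECKO, 0 to 4 over both sides, 0 to 2 on the injured side and 0 to 2 between deletion labels. With 3 libraries per group and a biological coefficient of variation of 0.774, a 2.33-fold difference (Hes1) did not pass, and Dll1 and Hey2 were further limited by counts down to 8 and 2.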

Other observations

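Genes of arterial endothelium, several of them targets of Notch, were followed as a list of 7 (Efnb2, Gja4, Gja5, Sox17, Unc5b, Bmx and Cxcr4). In edgeR's quasi-likelihood test 0 of the 7 were called in any comparison, and the list is reported as values. Efnb2, the ephrin of arterial cells, stood at 61.8, 60.4 and 86.4 CPM in sham ipsilateral and 41.1, 22.8 and 47.8 CPM in MCAO ipsilateral libraries, without overlap, as held for 2 of the 7 and for 27.7% of all genes. Under both deletion labels it stood above the MCAO ipsilateral libraries, at 93.5, 77.2 and 107 CPM for Hdac2 ECKO and 90.9, 78.4 and 69.9 CPM for Ezh2 ECKO. Its log2 differences were −0.90 ± 0.40 (SE) for the occlusion on the injured side, 1.31 ± 0.40 for Hdac2 ECKO and 1.10 ± 0.40 for Ezh2 ECKO, with unadjusted p of 0.0340, 0.00356 and 0.0118 and adjusted p of 0.667, 0.394 and 0.142. All 3 comparisons share the MCAO ipsilateral libraries.

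Bmx, a kinase of arterial endothelium, stood at 82.2, 83.1 and 131 CPM under the Hdac2 ECKO label against 35.0, 23.4 and 42.2 CPM for MCAO ipsilateral, which is a log2 difference of 1.56 ± 0.41 with an unadjusted p of 0.00103 and an adjusted p of 0.273. Gja5, the arterial connexin, went the other way under the Ezh2 ECKO label. It stood at 0, 0.228 and 0.950 CPM there, at 4.70, 4.04 and 2.01 CPM in MCAO ipsilateral libraries and at 5.49, 5.87 and 1.47 CPM under the Hdac2 ECKO label, with log2 differences of −3.18 ± 1.22 against MCAO ipsilateral and 3.43 ± 1.24 for Hdac2 ECKO against Ezh2 ECKO. The unadjusted p were 0.0167 and 0.0113 and the adjusted p 0.164 and 0.295. Sox17 was lower under the Hdac2 ECKO label, at 191, 182 and 203 CPM against 254, 268 and 205 CPM in MCAO ipsilateral libraries. Groups did not overlap for 3 of the 7 genes for Hdac2 ECKO, beside 19.9% of all genes, and for 2 of the 7 for Ezh2 ECKO, beside 29%. Of the 7, 5 stood above 0 for Hdac2 ECKO and 4 for Ezh2 ECKO. The 7 genes had a median log2 difference of 0.43 for Hdac2 ECKO and 0.21 for Ezh2 ECKO, beside 0.11 and 0.17 for all genes tested. DESeq2 called 1 of the 7 in each of these and 1 between the deletion labels, and voom called 1 on the injured side and 2 over both sides.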
